A study of Mus musculus with 4 samples.

Results

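Genes encoding pituitary hormones and the receptors for prolactin and growth hormone were followed in the septal nasal mucosa of young adult and aged mice. The group held 10 genes, the hormone genes *Prl*, *Gh*, *Cga*, *Tshb*, *Lhb*, *Fshb* and *Pomc*, the pituitary transcription factor gene *Pou1f1*, and the receptor genes *Prlr* and *Ghr*. They were found by matching the accession of each non-control probe to a gene symbol, which gave 14 probes of 56605 on the array and 10 genes of 45604 tested. The genes were chosen with their age difference in these arrays already known, so their levels and differences are given as a description and carry no test. RNA came from mice labelled as male and as C57BL/6J, with no genetic change named, 8 weeks of age in the young adult group and 16 months of age in the aged group. Each group had 2 arrays, and each array received Cy3-labelled RNA pooled from 5 mice. The methods set aside fewer mice of each age for gene analyses than separate pools of this size would need, so pools drawn from those mice alone would share animals, and the errors below measure the spread between arrays only. The labels name the tissue olfactory epithelium, the protocol names septal nasal mucosa, and a further label text on silica and lung matched neither and was not used.

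Prolactin and growth hormone are related protein hormones made by lactotrophs and somatotrophs of the anterior pituitary, and the transcription factor POU1F1 (Pit-1) is required for both cell types and for thyrotrophs. The glycoprotein hormones TSH, LH and FSH each pair the common alpha subunit encoded by *Cga* with a beta subunit of their own, and *Pomc* encodes the precursor of ACTH and the melanocortins. PRLR and GHR are single-pass cytokine receptors that signal through JAK2 and STAT5. Prolactin and growth hormone are best known as blood-borne hormones, although transcripts of both have also been described outside the pituitary.

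The promoters of 3 genes are shown as examples, a hormone gene with both motifs searched (*Prl*), a hormone gene with TATAAA alone (*Cga*) and a receptor gene with neither (*Ghr*). They are the 250 bases before the RefSeq start on the strand of the gene, build GRCm38.p6. *Prl* lies at chr13:27057320-27057569 (+), *Cga* at chr4:34893529-34893778 (+) and *Ghr*, first of 2 starts, at chr15:3583353-3583602 (-). Capitals mark ATGNATA on either strand, a form of the Pit-1 recognition sequence, and TATAAA on the strand of the gene in the last 50 bases before the start.
Prl: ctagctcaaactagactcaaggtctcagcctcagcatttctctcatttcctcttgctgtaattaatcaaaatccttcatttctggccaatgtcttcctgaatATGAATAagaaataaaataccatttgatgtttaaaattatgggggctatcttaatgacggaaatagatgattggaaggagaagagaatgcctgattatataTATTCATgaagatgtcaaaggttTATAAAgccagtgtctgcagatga
Cga: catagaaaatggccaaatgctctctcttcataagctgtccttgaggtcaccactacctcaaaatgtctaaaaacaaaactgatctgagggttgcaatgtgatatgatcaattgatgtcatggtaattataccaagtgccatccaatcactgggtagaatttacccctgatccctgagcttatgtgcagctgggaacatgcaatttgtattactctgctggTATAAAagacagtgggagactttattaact
Ghr: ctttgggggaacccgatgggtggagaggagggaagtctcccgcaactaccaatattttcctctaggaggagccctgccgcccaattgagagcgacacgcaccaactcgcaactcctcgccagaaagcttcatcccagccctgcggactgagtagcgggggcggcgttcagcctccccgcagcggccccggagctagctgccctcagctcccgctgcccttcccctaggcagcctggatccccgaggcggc

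The *Prl* promoter held ATGNATA 2 times, with first bases 148 and 47 bases before the start, and TATAAA 24 bases before it. *Pou1f1* held ATGNATA 57 bases before its first start, and the other 7 of the 9 genes with a promoter in the table, all but *Gh*, held none in these 250 bases. Of all 32851 starts in the table, 7.92% held ATGNATA in the same window. TATAAA stood in the last 50 bases in 7 of the 9 genes, namely *Prl*, *Cga*, *Tshb*, *Lhb*, *Fshb*, *Pomc* and *Pou1f1*, at 24 to 33 bases before the start, and in neither receptor gene. It stood there in 2.63% of all starts. The 9 genes have 13 starts, and a gene was counted where any of its starts matched. Counts by gene and shares of all starts are therefore unlike measures. The second start of *Pou1f1* held neither motif. On both strands of the whole 250 bases, TATAAA was found at 12.4% of all starts. A match of letters is a description and not a binding site.

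Intensities are quantile-normalized values after background correction, and differences are log2 differences of aged minus young adult arrays. A probe is called detected on an array where the scanner software flagged it as well above background. Of the non-control spots, 63.1 to 76.8% were detected per array. Of the 10 genes, *Prl*, *Lhb*, *Pomc*, *Prlr* and *Ghr* had at least 1 probe detected on all 4 arrays, *Gh* was detected on both aged arrays alone, *Cga* on 1 aged array alone, and *Tshb*, *Fshb* and *Pou1f1* on none. Markers of the labelled tissue were present, with all 6 of mature ORNs and all 4 of sustentacular cells detected on every array. Detection alone does not single out this tissue, since 5 of 6 markers of central neurons and astrocytes were also detected on every array. *Omp*, of mature ORNs, read 286061 to 332591. The label of male sex was not met by its markers. *Xist*, a transcript of the inactive X in female cells, was detected on all 4 arrays at 612 to 645, and 7 of 8 genes of the Y chromosome were detected on no array, the exception being *Sry* on young adult array 2. *Xist* was alike in both ages, and its part in the hormone values was not tested.

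**Figure D1:**
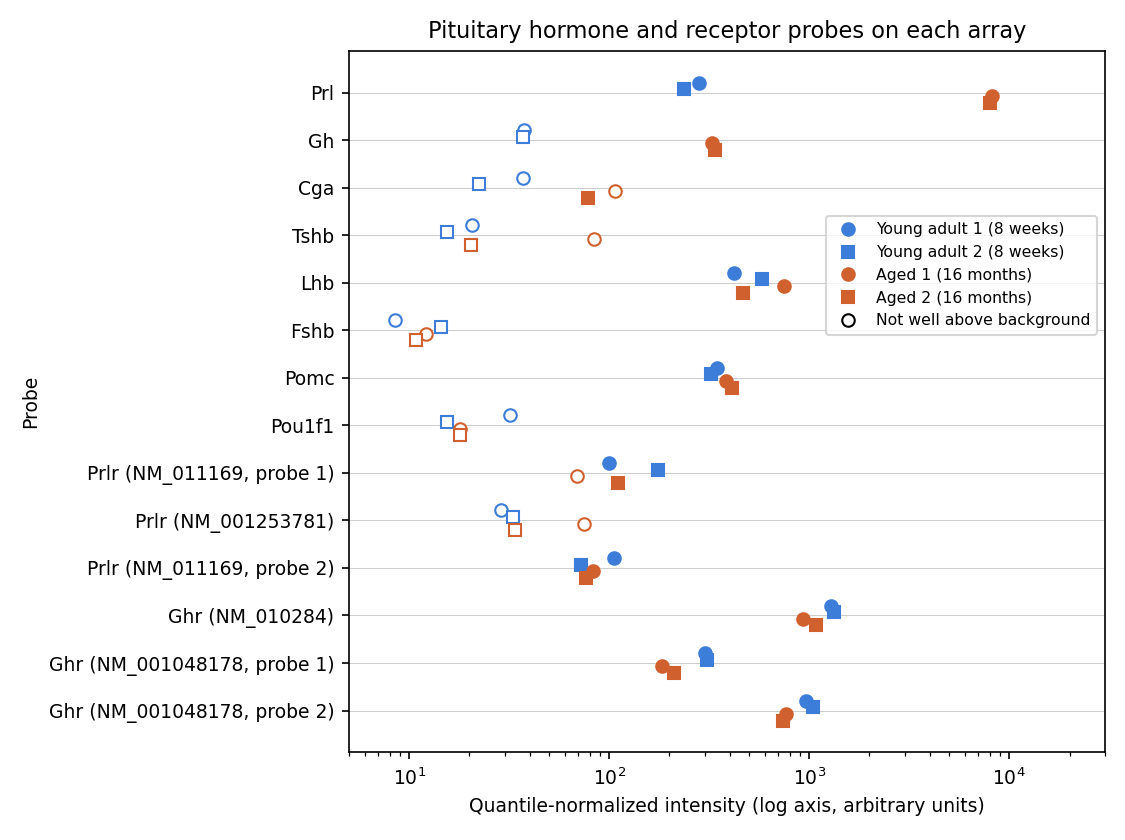
Quantile-normalized intensity (log axis) of the 14 probes on each array, with circles for array 1 and squares for array 2 of each age, and open symbols where the probe was not well above background. The aged arrays of *Prl* and *Gh* lie far to the right of the young adult arrays, those of all 3 *Ghr* probes lie to the left, and levels of different rows are not comparable with each other.

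*Prl*, which encodes prolactin, had intensities of 282 and 238 at 8 weeks and 8155 and 7969 at 16 months. The groups did not overlap, and the aged arrays differed from each other by far less than from the young adult arrays. Before any correction, its spot read 346 and 249 on the young adult arrays over local backgrounds of 67 and 29, and 7907 and 7860 on the aged arrays over local backgrounds of 63 and 39. The mean was 260 ± 31.7 (SD, n = 2 pools) at 8 weeks and 8062 ± 132 at 16 months, a log2 difference of 4.96 (standard error 0.12), or 31.1-fold. The *Prl* probe was well above background in the young adult mucosa as well. In whole tissue, a change in the number of cells of a type and a change in RNA per cell cannot be told apart.

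*Gh*, which encodes growth hormone, had intensities of 37.3 and 37.1 in young adult arrays and 326 and 336 in aged arrays. Neither young adult array was well above background, where the spot read 69.5 over 58 and 57 over 31, against 352 over 57 and 340 over 34 on the aged arrays. The level of the aged arrays was 8.90-fold higher in the reported setting. Both young adult values already lay above the lowest value of any detected probe on their array, so this fold is not a minimum. The log2 difference was 3.13 between the 2 arrays that shared a slide and 3.18 between the other arrays. Its size depended on the handling of background, from 2.12 with a normexp offset of 50 to 4.36 with the scanner software's subtraction and quantile normalization.

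**Figure D2:**
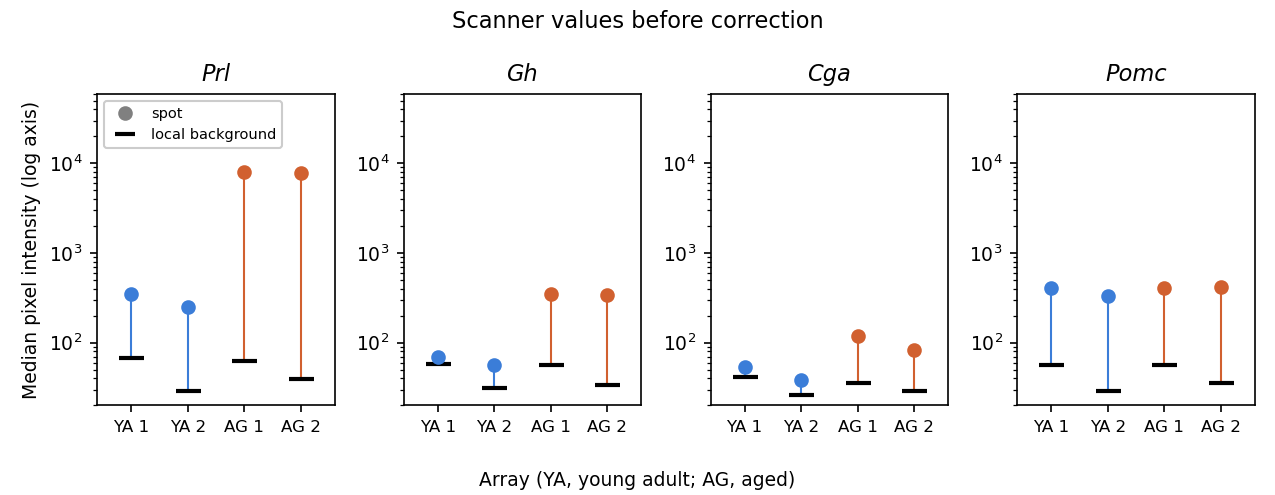
Median pixel intensity (log axis) of the spot (dot) and of its local background (bar) for *Prl*, *Gh*, *Cga* and *Pomc* on each array, before correction. The *Gh* and *Cga* spots of the young adult arrays lie close to their local background, while the *Prl* spot lies above it on all 4 arrays.

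The common alpha subunit gene *Cga* had intensities of 37.1 and 22.5 at 8 weeks and 107 and 78.7 at 16 months. Both aged arrays lay above both young adult arrays, but the probe was well above background on aged array 2 only. The spot that was not so flagged, on aged array 1, was the brighter, at 119 over a local background of 36. On aged array 2 it read 84 over 29. With 3 of the 4 arrays not well above background, no minimum fold is given. The log2 difference was 1.67 (standard error 0.34), from 0.84 with a normexp offset of 50 to 3.31 with the processed signal scaled to the 75th percentile.

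None of the 3 beta subunit genes had both aged arrays above both young adult arrays, as *Cga* had. For *Tshb* and *Fshb*, which were undetected, the arrays do not tell no change from a change below detection. *Tshb*, for the TSH subunit, was not well above background on any array, with intensities of 20.6 and 15.5 on the young adult and 84.0 and 20.4 on the aged arrays. The higher value on aged array 1 was not seen on aged array 2, the groups overlapped, and the log2 difference of 1.21 was 0.19 without aged array 1 and 2.23 without aged array 2. *Fshb*, for the FSH subunit, was also undetected, with 8.49 and 14.4 on the young adult and 12.2 and 10.8 on the aged arrays. *Lhb*, for the LH subunit, was detected on all arrays at 419 and 579 on the young adult and 749 and 467 on the aged arrays. Its groups overlapped, and its log2 difference of 0.26 (standard error 0.33) turned to -0.08 without aged array 1.

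*Pomc* had intensities of 346 and 322 in young adult arrays and 383 and 412 in aged arrays. The aged arrays were both higher, by a log2 difference of 0.25 (standard error 0.09), which was 0.15 within the shared slide. *Pou1f1*, the pituitary transcription factor, was not detected on any array, with 31.8 and 15.5 on the young adult arrays and 18.0 on each aged array. At these intensities the arrays do not tell whether *Pou1f1* RNA was absent or below detection.

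The growth hormone receptor gene *Ghr* was measured by 3 probes, all detected on every array. The probe for NM_010284 read 1281 and 1331 at 8 weeks and 933 and 1078 at 16 months. Probe 1 for NM_001048178 read 299 and 309 against 183 and 211. Probe 2 for that accession read 961 and 1038 against 761 and 739. Every aged value of the 3 probes was thus below the young adult values, with log2 differences of -0.38, -0.63 and -0.41. Averaged over the probes, *Ghr* was at 735 ± 25.6 (SD, n = 2 pools) at 8 weeks and 529 ± 32.3 at 16 months, a log2 difference of -0.47 (standard error 0.09). The difference was -0.50 within the shared slide and -0.45 between the other arrays.

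The prolactin receptor gene *Prlr* had 3 probes that did not move together. Probe 1 for NM_011169 read 99.3 and 175 in young adult arrays and 68.8 and 111 in aged arrays, the aged array 1 value not being well above background. Probe 2 for that accession was detected on every array and read 105 and 72.4 against 83.1 and 76.5. The probe for NM_001253781 was detected on none, and read 28.8 and 33.2 against 74.5 and 34.0. Groups overlapped for both NM_011169 probes, while the undetected probe was higher on the aged arrays. Averaged over the probes, *Prlr* was at 71.0 ± 5.57 (SD, n = 2 pools) at 8 weeks and 70.6 ± 6.53 at 16 months, a log2 difference of -0.01 (standard error 0.12). Without undetected probes the difference was -0.34, so that the value of *Prlr* rests on which probes are counted.

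Over the 10 genes, both aged arrays lay above both young adult arrays for 4 (*Prl*, *Gh*, *Cga* and *Pomc*) and below them for 1 (*Ghr*), where 24.2% and 21.8% of all genes tested do so. A P below 0.05 and an FDR below 0.25 in limma's test over all genes, the statistical criteria of the study without its further limits on fold and mean intensity, were met by 2 of the 10 genes (*Prl* and *Gh*) in the higher and by 0 in the lower direction, against 1.65% and 2.33% of all genes. The paper, with its own processing, also lists *Cga* among its upregulated genes, whereas here *Cga* missed the limit (FDR = 0.26 by limma). At an unadjusted P below 0.05, limma's test counted 3 higher (*Prl*, *Gh* and *Cga*) and 1 lower (*Ghr*), against 6.05% and 7.08% of all genes. Since the genes were picked from this contrast, nothing is read from these counts. The median log2 difference of the 10 genes was 0.26, and that of all genes 0.0093.

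**Figure D3:**
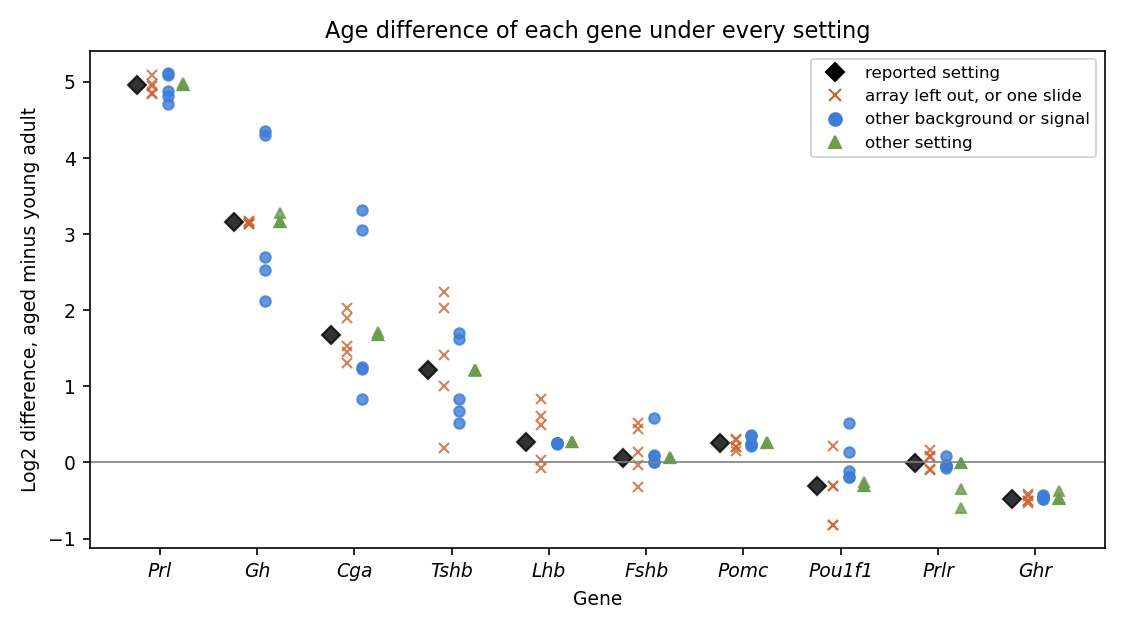
Log2 difference of aged minus young adult arrays for each of the 10 genes (vertical axis) under the reported setting (black diamonds) and every alternative. *Prl* stays between 4.71 and 5.11, *Gh* and *Cga* spread most with the handling of background, *Tshb* with the aged array left out, and *Ghr* stays below 0.

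Other genes of these pathways were taken from lists written by symbol and tested over all genes, with calls by the same criteria. Both directions together, 3.98% of all genes were called, and 13.1% had an unadjusted P below 0.05. Of the 12 genes called in these lists and among the cell type markers below, 5 (*Pitx1*, *Igf1*, *Csn3*, *Pip* and *Gpha2*) also had a mean intensity of at least 100 and a change of at least 1.5-fold. All calls below rest on the 4 arrays together, because no gene had an FDR below 0.25 when any one of the 4 arrays was left out.

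Other genes that mark or regulate anterior pituitary cells moved in both directions. Of 20 such genes, 1 rose and 2 fell, 17 were not called, and 7 were detected on no array. Limma's unadjusted P was below 0.05 for 1 higher and 4 lower genes. *Pitx1*, a homeobox gene of oral and pituitary ectoderm, rose from 4867 ± 131 (SD, n = 2 pools) to 7306 ± 370, a log2 difference of 0.59 (FDR = 0.21 by limma). *Pax7*, known from intermediate lobe cells, neural crest derivatives and muscle stem cells, fell from 1089 ± 23.6 to 751 ± 27.6 (log2 difference -0.54, FDR = 0.213). The summed level of the 20 genes was 10887 and 11536 on the young adult and 12750 and 12712 on the aged arrays, and without *Pitx1* it was 6112 and 6577 against 5182 and 5667. Detected on no array were *Lhx4*, *Tbx19*, *Six6*, *Neurod4*, *Gnrhr*, *Trhr* and *Avpr1b*. The part of pituitary cells in the *Prl* and *Gh* values was not tested.

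All 12 genes of secretory granules and prohormone processing, which endocrine cells and neurons share, were detected on every array and none was called. At an unadjusted P below 0.05, limma counted 2 higher and 1 lower, of 12, where 13.1% of all genes reach that limit. Their median log2 difference was 0.12. Among them the granule proteins *Chga* and *Chgb* had log2 differences of 0.22 and 0.52, and the proconvertase genes *Pcsk1* and *Pcsk2*, which cut prohormones such as POMC, of -0.08 and -0.33.

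The prolactin family of mice includes many placental hormone genes beside *Prl*, of which 23 had probes. Of these, 18 were detected on no array and 3 on all 4, namely *Prl2c1*, *Prl3b1* and *Prl3d1*. None of the 23 was called by limma, with 1 lower and 0 higher at an unadjusted P below 0.05, and their median log2 difference was -0.12. *Prl2c1* had 3235 and 3319 on the young adult and 3745 and 3492 on the aged arrays, a log2 difference of 0.14. A rise of the size seen in *Prl* was thus not measured in its relatives, whose log2 differences ranged up to 0.53 for *Prl8a2*, which was undetected.

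Genes that carry or restrain the signal of both receptors, counted together, were detected throughout, 23 of 23 on every array. *Stat5b*, the STAT5 isoform most tied to growth hormone action, fell from 2284 ± 7.47 to 1694 ± 5.93 (SD, n = 2 pools), a log2 difference of -0.43 (FDR = 0.234 by limma), and was the only one called. *Stat5a* and *Jak2* had log2 differences of -0.24 and 0.01. The feedback inhibitors *Socs2* and *Cish*, which STAT5 induces, had log2 differences of -0.12 and 0.08 and were not called. *Socs3*, another inhibitor of JAK signaling and named after its values were seen, had 3888 and 3513 at 8 weeks and 5124 and 5247 at 16 months, did not overlap and just missed the limit (log2 difference 0.49, FDR = 0.251 by limma). Of the 23 genes, limma counted 1 higher and 3 lower at an unadjusted P below 0.05. The median over the 23 genes was -0.10. With scaling to the 75th percentile, *Stat5b* was no longer called.

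Of 21 genes known as targets of prolactin or growth hormone in the liver, mammary gland or other tissues, 0 rose and 5 fell. *Pip*, the prolactin-inducible protein of exocrine glands, fell from 19294 ± 1577 (SD, n = 2 pools) to 3650 ± 176, a log2 difference of -2.40 (FDR = 0.168 by limma). *Csn3*, which encodes kappa-casein, fell from 342 ± 7.06 to 98.4 ± 8.28 (log2 difference -1.80, FDR = 0.168). *Igf1*, the growth factor induced by growth hormone in the liver, fell with a log2 difference of -1.08 (FDR = 0.201). *Wap*, for whey acidic protein, was called lower (FDR = 0.25), but its 2 probes had log2 differences of -1.29 and -0.09, neither was detected in aged mice, and the groups overlapped for the second. The remaining call was *Csn1s2b*, named after its values were seen, with 2 of its 3 probes detected on no array. Other milk genes were not called, with *Lalba* at a log2 difference of -0.41, and *Csn1s1*, *Csn1s2a* and *Csn2* were detected on no array. These genes are also under other controls, and *Pip*, *Csn3* and *Igf1* were known to be lower in these arrays when the list was written. At an unadjusted P below 0.05, limma counted 1 higher and 7 lower of the 21, where 13.1% of all genes reach that limit, and the median of the list was -0.12.

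Genes for releasing factors and other regulators of the pituitary had 1 call among 12, with 2 higher and 4 lower at an unadjusted P below 0.05 by limma. *Kiss1*, the kisspeptin gene, fell from 68.0 ± 5.20 (SD, n = 2 pools) to 41.5 ± 0.12, a log2 difference of -0.71 (FDR = 0.204 by limma), with 1 of its 2 probes undetected in aged mice. *Gnrh1*, whose neurons arise in the olfactory placode, was detected on all arrays at 317 and 329 on the young adult and 288 and 338 on the aged arrays, which overlapped. *Drd2*, for the dopamine receptor through which lactotrophs are restrained, had 279 and 329 against 299 and 370, which overlapped too. *Drd2* was counted above with the anterior pituitary genes and is not among these 12.

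Receptors and subunits for the remaining pituitary hormones also had 1 call among 12, and this was the single gene at an unadjusted P below 0.05 by limma. *Gpha2*, the alpha subunit of thyrostimulin and a relative of *Cga*, fell from 678 ± 22.3 (SD, n = 2 pools) to 361 ± 37.3, a log2 difference of -0.91 (FDR = 0.197 by limma), against the direction of *Cga*. *Tshr*, *Lhcgr* and *Fshr*, the receptors of TSH, LH and FSH, were detected on no array. Of the melanocortin receptors, *Mc5r* was detected on every array, at 229 and 245 on the young adult and 276 and 243 on the aged arrays, *Mc2r* and *Mc3r* on some, and *Mc1r* and *Mc4r* on none.

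**Figure D4:**
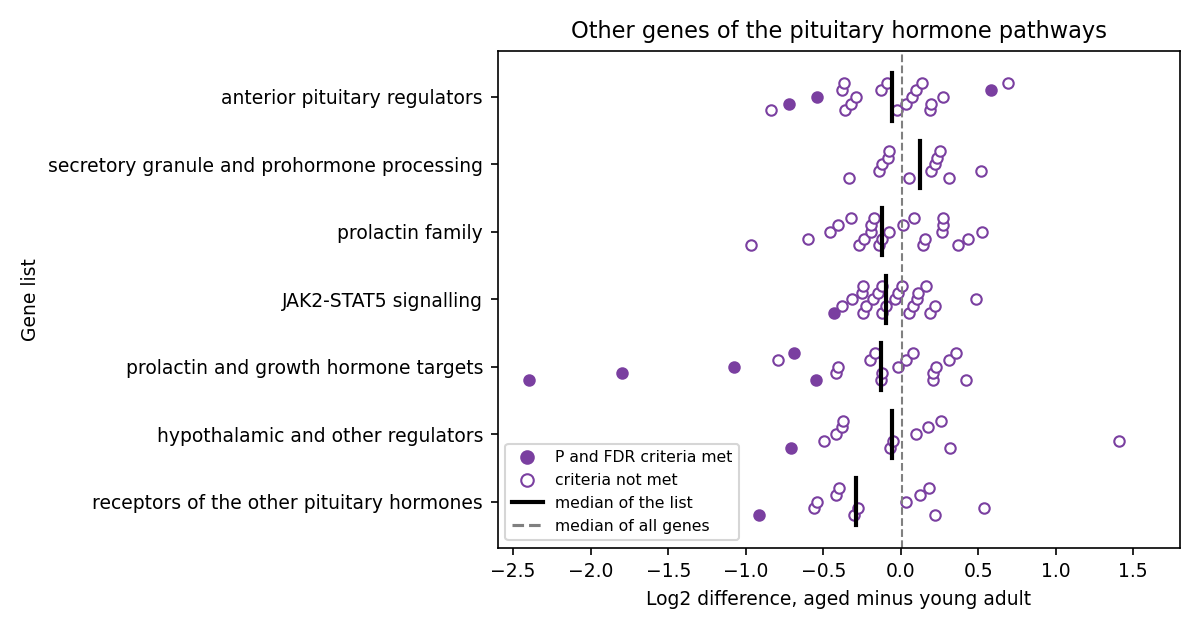
Log2 difference of aged minus young adult arrays for each gene of 7 lists (horizontal axis), with filled circles for genes that met the P and FDR criteria, a black line for the median of each list and a dashed line for the median of all genes. The largest falls are those of *Pip*, *Csn3* and *Igf1* among the targets, and *Pitx1* is the only filled circle to the right of 0.

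Markers of further cell types were measured beside these genes. The summed level of 6 markers of mature ORNs was 422202 and 413968 on the young adult and 451170 and 463477 on the aged arrays, and none was called. Sustentacular cell markers summed to 373299 and 360066 against 401710 and 406750, with *Cyp1a2* higher (log2 difference 0.54, FDR = 0.209 by limma). For 6 markers of central neurons and astrocytes the sums were 1312 and 1218 against 1284 and 1243, with *Neurod6* undetected throughout and none called. For 5 leukocyte markers they were 3547 and 3947 against 3122 and 3115, with none called. Most of these sums came from *Omp*, *Cyp2g1*, *Slc1a2* and *Csf1r*, respectively. The *Csf1r* probes had log2 differences of 0.05 and -0.63. The part of these cell types in the hormone values was not tested.

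The genes most like *Prl* over the 4 arrays, by the Euclidean distance between log2 values centered on their mean among 29505 detected genes, were *Chil4* (1.18), *Gh* (1.82), *Chil3* (1.82), *Serpina3n* (2.46) and *Moxd2* (2.56). For *Gh* they were *Chil3* (0.054), *Chil4* (0.64), *Serpina3n* (0.65), *Moxd2* (0.79) and an intergenic probe without a symbol (0.80). *Chil3*, a chitinase-like protein gene, had 735 ± 15.2 (SD, n = 2 pools) at 8 weeks and 6523 ± 357 at 16 months. With 2 arrays per age the distance mostly measures the size of the rise.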

How the data were processed

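The authors hybridized 4 one-color arrays, extracted them with Feature Extraction 11.0.1.1 and deposited, per spot, the median intensity, the local background intensity, a background-subtracted processed intensity and flags. The deposited series table repeated the processed intensity at all 62976 spots (relative tolerance 1e-06). Their submitted processing notes name R 3.2.1.

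Background was removed from the median spot signal with limma 3.58.1 (normexp, offset 0; R 4.3.3). Control spots and outlier spots (88 to 118 per array) were left out, and spots of a probe averaged. Arrays were quantile normalized and probes of a gene averaged on the log2 scale. Accessions matched RefSeq (GRCm38.p6) symbols for 32994 of 56605 probes. Array coordinates use another build and were not used. Differences were fitted with limma over 45604 genes, without covariates. Standard errors and FDR values come from this fit. An exact two-sided permutation test of 2 arrays against 2 cannot give a P below 0.333.

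Young adult array 1 and aged array 1 shared a slide, and the 2 other arrays lay on 1 slide each. With slide as a block only the within-slide difference remains, without a test. The number of arrays limits the precision. No spot was saturated. The genes and lists were chosen with earlier results of these data known. Named are all 10 genes, the 4 largest called differences per list, genes needed as markers, and the 5 genes nearest to *Prl* and *Gh*. Alternatives covered background, normalization, flagged and dim probes, probe choice, eBayes trend, replicate block, slide and arrays left out. The values of 1 further called list gene are not reported here.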

Additional observations from a re-analysis of the deposited data

How the results depend on the processing

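The direction of *Prl*, *Gh*, *Cga*, *Pomc* (higher) and *Ghr* (lower) held under every alternative run for it, and *Cga* could not be measured with dim probes left out. The log2 difference of *Prl* was 4.71 with a normexp offset of 50, 4.82 without background correction, 5.11 with the processed signal scaled to the 75th percentile and 5.09 with that signal quantile normalized. That of *Gh* was 2.70 with an offset of 16, 2.12 with an offset of 50, 2.53 without correction, 4.31 and 4.36 with the processed signal scaled or quantile normalized, 3.27 without dim probes and 3.13 within the shared slide. With each array left out, *Prl* ranged from 4.83 to 5.08 and *Gh* from 3.13 to 3.17, and counts of called genes were 0 to 0 over the whole table, the 10 genes and each list, with 3289 to 5317 genes at an unadjusted P below 0.05. A fit to 3 arrays leaves 1 residual degree of freedom.

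Over the whole table, 1298 genes were called higher and 1691 lower with an offset of 16, 2107 and 2475 with an offset of 50, 1788 and 2239 without correction, 2029 and 2343 with the quantile-normalized processed signal, 3578 and 3671 without dim probes, and 3612 and 3518 with an intensity trend, against 754 and 1063 as reported. Both directions together, 2415 were called with the most intense probe, 1410 with 75th percentile scaling and 1506 with the processed signal so scaled. These shares are of 45604 genes tested, but of 29495 without dim probes. Deviations from the mean of each age correlated at r = -0.08 across genes between arrays with the same replicate number. Young adult array 1 and aged array 1 nevertheless shared a slide. Their median local backgrounds were 67 and 63, against 32 and 39 on young adult array 2 and aged array 2. With the replicate number as a block, 0 genes were called in either direction over the whole table, among the 10 genes and in every list, with 5197 genes at an unadjusted P below 0.05 and the differences themselves unmoved.

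Among the 10 genes, 4 were called higher with the quantile-normalized processed signal and with the intensity trend (*Prl*, *Gh*, *Cga* and *Pomc*). Of the alternatives with a test on all 4 arrays, *Cga* met the criteria in 7 of 10, although not as reported, *Prl* and *Gh* in 10 of 11, *Ghr* in 6 of 11, *Pomc* in 3 of 11 and *Prlr* in 1 of 11. These alternatives reuse the same 4 arrays, and the genes were picked from this contrast. The counts therefore describe the settings only, and nothing is read from them. In the lower direction 1 (*Ghr*) was called with an offset of 16 or 50, without correction, with the quantile-normalized processed signal and with the trend, and 2 (*Ghr* and *Prlr*) without dim probes. Anterior pituitary regulators had 2 higher calls with the processed signal scaled to the 75th percentile or without dim probes, and 1 lower call with 75th percentile scaling or 4 with the trend. Granule genes had 1 higher call with an offset of 16, without correction, with the quantile-normalized processed signal or with the most intense probe, 2 with an offset of 50, 3 without dim probes and 5 with the trend, and 1 lower call with an offset of 50, without correction, with the quantile-normalized processed signal or without dim probes and 2 with the trend. The prolactin family and the receptors of the other hormones each had 1 higher call with the trend, and these receptors 2 lower calls with the quantile-normalized processed signal, without dim probes or with the most intense probe. JAK2-STAT5 genes had 1 higher call with an offset of 16 or 50, without correction, with either processed signal or with the most intense probe, 2 without dim probes and 3 with the trend. Their lower calls were 0 with 75th percentile scaling of either signal, 2 with an offset of 16 or without correction, 3 with an offset of 50, and 4 with the quantile-normalized processed signal, without dim probes or with the trend. Targets had 1 higher call with an offset of 50 or the quantile-normalized processed signal, 2 without dim probes or with the trend, and 3 lower calls with 75th percentile scaling of either signal. Regulators outside the pituitary had 1 higher call with an offset of 50, without correction or without dim probes and 2 with the trend, and lower calls of 0 with 75th percentile scaling, 3 without dim probes, and 2 with an offset of 16 or 50, without correction, with the quantile-normalized processed signal or with the trend. Calls over the whole table also changed with these settings, and the cause of the shifts in the lists was not tested.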
